A study of Homo sapiens with 2 samples.

Results

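The SR splicing factors described here are 10 genes of the SRSF family (SRSF1 to SRSF7, SRSF9, SRSF10 and SRSF11), taken by symbol from a gene table with 27685 rows, in which all 10 were found. They were measured by RNA sequencing in NCI-H838, an established line derived from a lung adenocarcinoma. One culture was transiently transfected with the pCDH plasmid carrying full-length LINC00472, a long noncoding RNA, and the other with the empty pCDH vector, and total RNA was taken 48 hours later. Both cultures therefore went through lipid transfection, untransfected cells were not removed as far as the labels say, and each group held 1 library. Nothing below could be checked against replicates, so p-values are left out and all intervals describe counting error alone.

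SR proteins bind exonic sequences of pre-mRNA through RNA recognition motifs and recruit the spliceosome through a domain rich in arginine and serine. Many of them control their own messenger RNA. When the protein is plentiful, it promotes inclusion of a so-called poison exon, which carries a stop codon, or retention of an intron. The resulting transcript is destroyed by nonsense-mediated decay or held in the nucleus, so that less protein is made. Kinases of the CLK and SRPK families phosphorylate the proteins and set where in the cell they act.

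Transcripts of this kind are annotated for the members. GENCODE 29 lists 39 protein-coding, 22 decay and 28 retained-intron transcripts for the 10 genes, with at least 1 decay transcript for each and a retained-intron transcript for 8 of them. In SRSF3, SRSF4, SRSF6, SRSF7 and SRSF9, 5 of the 10, the stop codon of a decay transcript lies in an exon that overlaps no exon of any protein-coding transcript of the gene. In the other 5 the stop lies in an exon that overlaps one of a coding transcript. The deposited counts sum all transcripts of a gene, so a count below can hold coding and unproductive RNA together, and the stretches that make the difference are shown for 4 members. Each runs 5′ to 3′ on the strand of the gene, from the first base of the exon to the stop codon, which is in capitals.

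SRSF3: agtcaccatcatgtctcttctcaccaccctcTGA
SRSF4: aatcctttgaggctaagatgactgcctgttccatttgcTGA
SRSF6: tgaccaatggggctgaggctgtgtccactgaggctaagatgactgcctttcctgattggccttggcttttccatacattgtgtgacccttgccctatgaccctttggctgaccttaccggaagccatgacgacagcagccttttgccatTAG
SRSF7: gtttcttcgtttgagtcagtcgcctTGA

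The SRSF3 stretch is at chr6:36599821-36599854 (plus strand), in exon 4 of the 7 exons of SRSF3-203, an exon of 456 nt. The SRSF4 stretch is at chr1:29160018-29160058 (minus strand), in exon 2 of the 3 exons of SRSF4-204, which has 195 nt. The SRSF6 stretch is at chr20:43459153-43459304 (plus strand), in exon 3 of the 7 exons of SRSF6-202, which has 268 nt. The SRSF7 stretch is at chr2:38749319-38749346 (minus strand), in exon 4 of the 9 exons of SRSF7-204, which has 449 nt. These positions are on GRCh38, the build of GENCODE 29, whereas the counts were made on hg19, and no position was converted. The stop thus comes 34, 41, 152 and 28 nt into the 4 exons. The stretches of the paralogs SRSF4 and SRSF6 share a run of 20 nt, tgaggctaagatgactgcct, the longest run shared by such stretches of different members.

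The LINC00472 library held 21093055 gene counts and the control 54823706. LINC00472 itself had 5655 against 2563 counts (log2 ratio 2.23, interval 2.16 to 2.30), in the direction of the label. The epithelial keratins KRT7, KRT8 and KRT18 were detected in both libraries, while the lung lineage markers NKX2-1 and SFTPB had 0 counts in both, which allows up to 3 counts in each. Of the 10 epithelial and lung markers, 6 reached 1 CPM. All 10 had a summed level of 121 CPM, against 543 CPM in the control, most of it keratins. By the size rule, 3 of them (KRT7, KRT8 and KRT18) were lower and 1, the lung protease NAPSA, was higher, with 88 against 66 counts (log2 ratio 1.49). CDH1 had a log2 ratio of 0.47 and EPCAM one of -0.19, and KRT19 and SFTPC had 0 counts against 44 and 7. Of the 10 markers of leukocytes, endothelium, fibroblasts and basal cells, 4 reached 1 CPM. The 10 together had a summed level of 30.2 CPM, against 52.0 CPM in the control. Most of it was CD68, with 432 against 1498 counts (log2 ratio -0.70), and COL1A1 had 237 against 458 counts (0.14). By the size rule, 2 were lower, COL1A2 with 15 against 68 counts and the basal keratin KRT5 with 0 against 395, and 0 were higher. CD3E was at 0 in both libraries and PTPRC, PECAM1 and CDH5 at 0 in the LINC00472 library. The part of these marker differences in the results was not tested.

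Together the members took 0.364% of all gene counts in the LINC00472 library (76844 counts, exact 95% interval 0.362 to 0.367) and 0.225% in the control (123365 counts, 0.224 to 0.226). Individual members went in opposite directions. Levels of different genes are compared in the deposited FPKM, which divides by transcript length and library size. In the control, SRSF2 was the most abundant member at 122 FPKM, followed by SRSF1 at 104, SRSF3 at 102, SRSF9 at 95.7, SRSF5 at 82.0, SRSF6 at 75.3, SRSF7 at 63.9, SRSF10 at 32.8, SRSF11 at 29.1 and SRSF4 at 16.1. In the LINC00472 library, SRSF5 led at 204 FPKM, followed by SRSF1 at 190.1, SRSF11 at 129, SRSF6 at 123, SRSF2 at 92.6, SRSF3 at 51.1, SRSF10 at 50.3, SRSF7 at 45.3, SRSF9 at 45.1 and SRSF4 at 21.1. SRSF1 kept the second place and SRSF4 the last, whereas SRSF11 moved from the ninth place to the third and SRSF9 from the fourth to the ninth. Spearman's correlation of the 10 levels between the libraries was 0.35, a description over genes that share both libraries. Without replicates, the order of neighbours with close values, such as SRSF7 and SRSF9, could not be assessed.

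**Figure D1:**
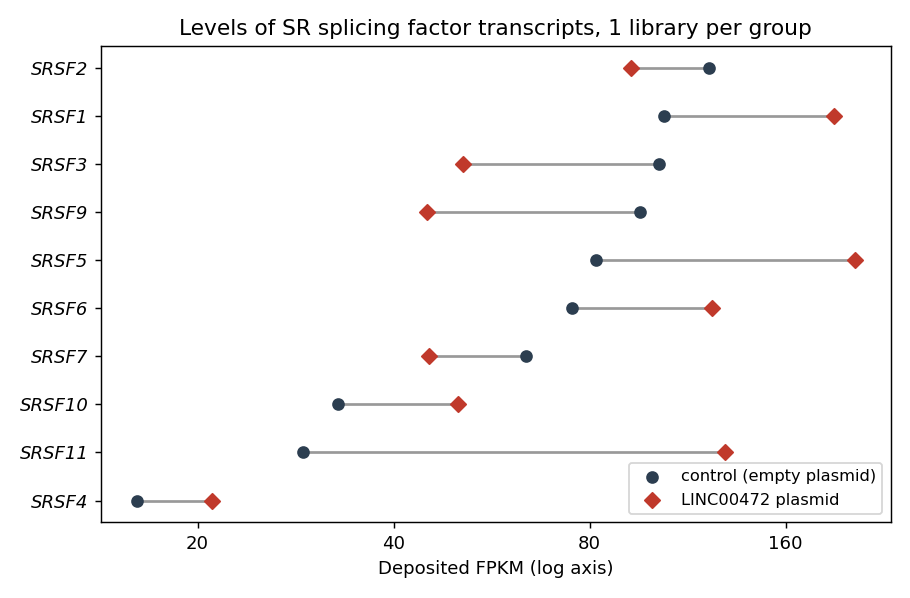
Deposited FPKM of the 10 SR splicing factors (log axis) in the control library (dark circles) and the LINC00472 library (red diamonds), 1 library each, ordered by the control. SRSF11 spans the widest gap, from 29.1 to 129 FPKM, while SRSF3 and SRSF9 lie lower in the LINC00472 library.

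Changes of a gene between libraries are given as log2 ratios of LINC00472 over control, from counts scaled with TMM factors. TMM equalises a trimmed, weighted mean of the gene ratios, so the median gene need not lie at 0. The size rule asks for 1 CPM or more on average (counts scaled to a common library size), a ratio of 2-fold or more and an interval free of equality. By this rule, 4 of the 10 members differed, 2 of them higher and 2 lower. Over all 14012 genes at 1 CPM, 16.3% were higher, 23.8% lower and 40.2% either, and over the 12379 protein-coding ones 11.4%, 26.2% and 37.6%, so the members' shares lay near those of all genes. With upper quartile factors, 2 members were higher and 0 lower, against 25.1% and 14.2% of genes, and with total counts again 2 and 0, against 22.5% and 16.3%. The median log2 ratio of the members was 0.34, against -0.19 over all these genes and -0.31 over the protein-coding ones, whose central 50% ran from -1.04 to 0.40. The members' ratios ran from -1.27 to 2.12. In bulk RNA of 1 culture, a change in the RNA per cell and in the mix of cells cannot be told apart.

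SRSF11, an SR-related protein of nuclear speckles that differs in build from the classical members, was higher in the LINC00472 library. It had 13632 against 6666 counts, or 585 against 134 CPM. The ratio was 4.35-fold (log2 2.12, interval 2.08 to 2.16), and under all 12 alternative settings the log2 ratio lay between 1.79 and 2.51. Some of these settings, named at the end, cannot change a member's ratio. Its share of the counts of the 10 genes went from 5.40% in the control (exact interval 5.28 to 5.53) to 17.7% (17.5 to 18.0).

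SRSF5 belongs with SRSF4 and SRSF6 to the members that carry a further RNA recognition motif. It had 7654 against 7474 counts, although the control was sequenced more deeply, which is 328 against 151 CPM. The ratio was 2.18-fold (log2 1.12, interval 1.08 to 1.17), and it met the rule in all 12 alternatives (1.12 to 1.51). SRSF6 had 11385 against 16267 counts, or 488 against 328 CPM, with a log2 ratio of 0.57 (interval 0.54 to 0.61). SRSF4 had 1252 against 2325 counts, or 53.7 against 46.9 CPM, with a log2 ratio of 0.20 (interval 0.10 to 0.30). The 3 paralogs thus had ratios above equality, of which that of SRSF5 met the rule.

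SRSF1, the prototype of the family and a proto-oncogene, was the member with the most counts in both libraries. It had 22788 against 32102 counts, or 978 against 647 CPM, and a log2 ratio of 0.60 (interval 0.57 to 0.62) that fell short of the rule and reached 0.98 with upper quartile factors. Its closest paralog in the set, SRSF9, went the other way. SRSF9 had 1233 against 6331 counts, or 52.9 against 128 CPM, a ratio 2.41-fold lower (log2 -1.27, interval -1.36 to -1.18). The call of SRSF9 ended with total counts (-0.98), with upper quartile factors (-0.88) and after adjustment for transcript length, GC content and introns (-0.71).

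SRSF3, the smallest member, and SRSF7 act as adaptors for mRNA export as well as in splicing. SRSF3 had 3948 against 18517 counts, or 169 against 373 CPM. The ratio was 2.2-fold lower (log2 -1.14, interval -1.19 to -1.09), and it fell short of 2-fold with total counts (-0.85), upper quartile factors (-0.75) and FPKM (-0.99). SRSF7 had 2643 against 9018 counts, or 113 against 182 CPM, and a log2 ratio of -0.68 (interval -0.74 to -0.62) that did not meet the rule. SRSF3 and SRSF7 were each below equality in every alternative run for them.

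SRSF2, a component of nuclear speckles, had 5954 against 14991 counts, or 255 against 302 CPM. Its log2 ratio of -0.24 (interval -0.29 to -0.20) lay near the median of all genes, and it turned to 0.15 with upper quartile factors and 0.05 with total counts. SRSF10, which represses splicing in its dephosphorylated form, had 6355 against 9674 counts, or 273 against 195 CPM, with a log2 ratio of 0.48 (interval 0.44 to 0.53). Neither met the rule under any of the alternatives run.

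**Figure D2:**
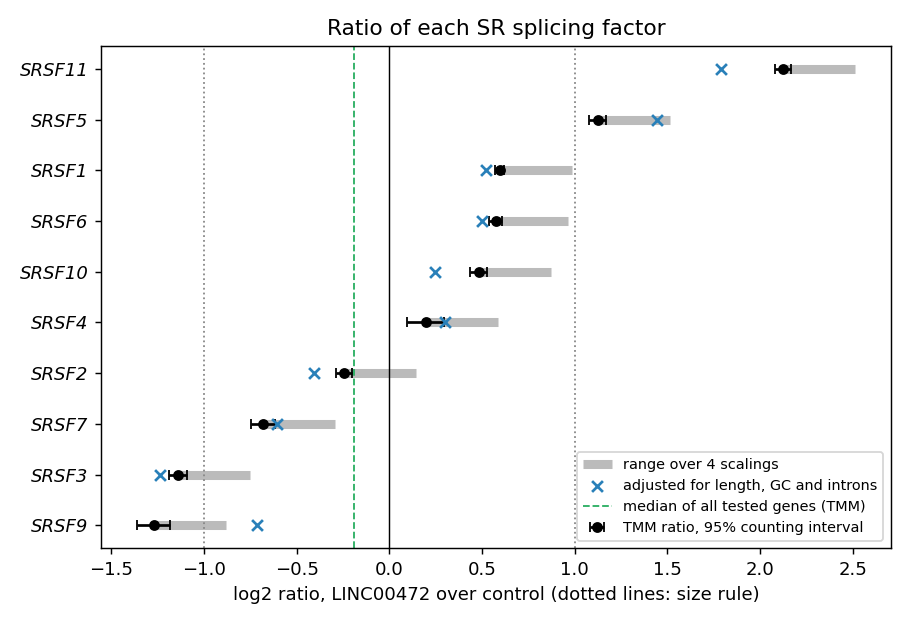
Log2 ratio of LINC00472 over control for each of the 10 genes: black points are TMM ratios with 95% counting intervals, grey bars the range over TMM, DESeq2, total-count and upper quartile scaling, blue crosses ratios adjusted for transcript properties, and the green line the median of all tested genes. SRSF11 and SRSF5 stay beyond the upper dotted line of the size rule under every scaling and after adjustment, whereas the bars of SRSF3 and SRSF9 cross the lower one.

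Because any scaling moves all genes of a library alike, the difference between the ratios of 2 members does not depend on it. The ratio of SRSF11 exceeded that of SRSF9 10.5-fold (log2 difference 3.39, 95% counting interval 3.29 to 3.49) and that of SRSF3 9.59-fold (3.26, interval 3.20 to 3.33). Within the paralogs, the ratio of SRSF1 exceeded that of SRSF9 3.64-fold (1.87, interval 1.77 to 1.96), and that of SRSF5 exceeded SRSF6 1.46-fold (0.55, interval 0.49 to 0.61) and SRSF4 1.90-fold. The ratios of SRSF3 and SRSF7 were closer, with a log2 difference of -0.46 (interval -0.54 to -0.38). Adjustment for transcript properties, unlike scaling, changes these differences. It lowered the excess of SRSF11 over SRSF9 to 5.65-fold, that over SRSF3 to 8.15-fold and that of SRSF1 over SRSF9 to 2.35-fold. Other differences widened, that of SRSF5 over SRSF6 to 1.93-fold and over SRSF4 to 2.21-fold, and that of SRSF3 and SRSF7 to a log2 difference of -0.63.

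The same shift shows in the make-up of the family, also free of scaling. Of the counts of the 10 genes, SRSF3 held 15.0% in the control and 5.14% after LINC00472 transfection, SRSF2 12.2% and 7.75%, SRSF7 7.31% and 3.44%, and SRSF9 5.13% and 1.60%. SRSF5 held 6.06% and 9.96%, and SRSF1 26.0% and 29.7%. SRSF6 held 13.2% and 14.8%, SRSF10 7.84% and 8.27%, and SRSF4 1.88% and 1.63%. The shares of SRSF11, SRSF5, SRSF1, SRSF6 and SRSF10 were thus larger, and those of SRSF3, SRSF2, SRSF7, SRSF9 and SRSF4 smaller, than in the control.

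**Figure D3:**
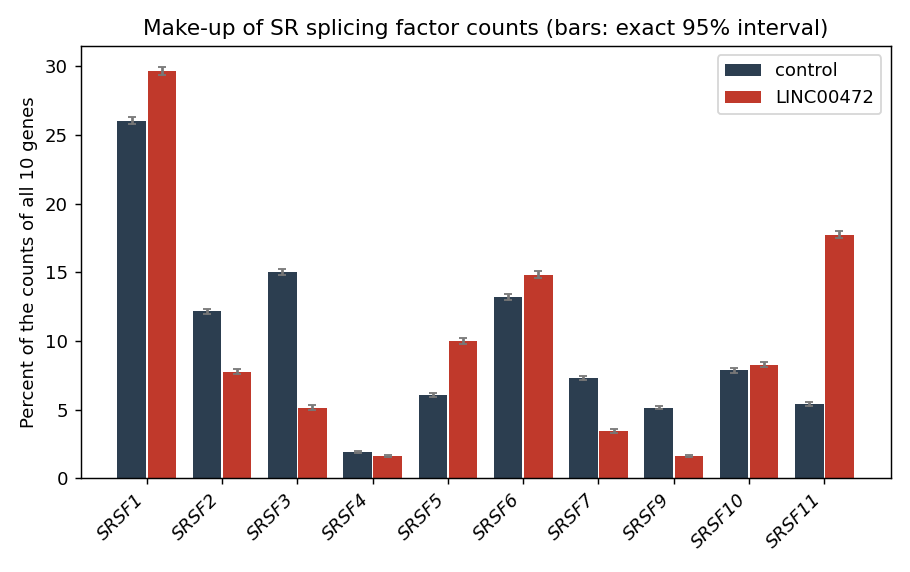
Percent of the summed counts of the 10 genes that each took in the control (dark bars) and the LINC00472 library (red bars), with exact 95% intervals for counting error. SRSF3 goes from 15.0% to 5.14% and SRSF11 from 5.40% to 17.7%.

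The deposited data hold a further measure, since FPKM divides a count by the length of the transcripts it was assigned to. The quotient of count and FPKM therefore gives the mean length of those transcripts, up to a constant for each library. The constant was set on the 2332 genes with at least 500 counts in both libraries and 1 transcript listed, for which the quotient of the libraries was the same within 0.998 to 1.002. For 4815 genes with 2 or more transcripts listed, the central 50% of the ratios of implied lengths (LINC00472 over control) ran from 0.994 to 1.01 and the central 95% from 0.875 to 1.12. How the authors' software assigned reads to transcripts is an estimate, whose error cannot be had from 1 library per group.

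Among the members, implied lengths differed where a noncoding RefSeq transcript (an NR accession) is listed beside the coding ones, as it is for 6 of the 10. The implied length of SRSF2 transcripts was 26.7% greater in the LINC00472 library, a ratio of 1.27 outside the central 95% of genes. SRSF11 was 11.3% greater, just inside that range. SRSF10 (3.85%), SRSF6 (3.42%) and SRSF3 (3.24%) had smaller differences in the same direction. SRSF1 went the other way, with a difference of -5.78%. For the 4 members without such a transcript the difference was at most 0.513%, and 2 of them, SRSF4 and SRSF9, have 1 listed transcript and so could not differ. The other 2, SRSF5 and SRSF7, list 3 and 2 transcripts, all of them coding, whereas SRSF10 and SRSF11 list 9 and 15. No share over all genes with a noncoding transcript listed was computed. The part of such transcripts in these differences was therefore not tested. Exons of SRSF2 and SRSF1 also overlap those of other genes, as described below, and the part of these overlaps was not tested either.

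Of the 8 members with 2 or more transcripts listed, 6 thus differed by over 3%, a mark set after the values were seen. The share was 19.6% over the 4815 genes, which were not matched to the members in number of transcripts. The order of the members' differences was not that of their ratios. SRSF2, with the greatest difference in implied length, had a log2 ratio near 0, and Spearman's correlation of implied length ratio and log2 ratio over the 10 members was -0.04. Which transcript was more or less used cannot be read from a mean length, because the sources used here do not give the lengths in the authors' annotation. For scale, the GENCODE decay transcripts named beside the exons printed above have 1095 nt for SRSF3, 393 nt for SRSF4, 1680 nt for SRSF6 and 2857 nt for SRSF7. The coding transcripts used here for these genes have 4222, 2387, 4325 and 2489 nt, so that for SRSF7 the named decay transcript is longer than the coding transcript. The other SRSF7 decay transcripts have 603 to 1944 nt and are shorter than that coding transcript. The longest of these shorter transcripts holds the same printed stretch.

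**Figure D4:**
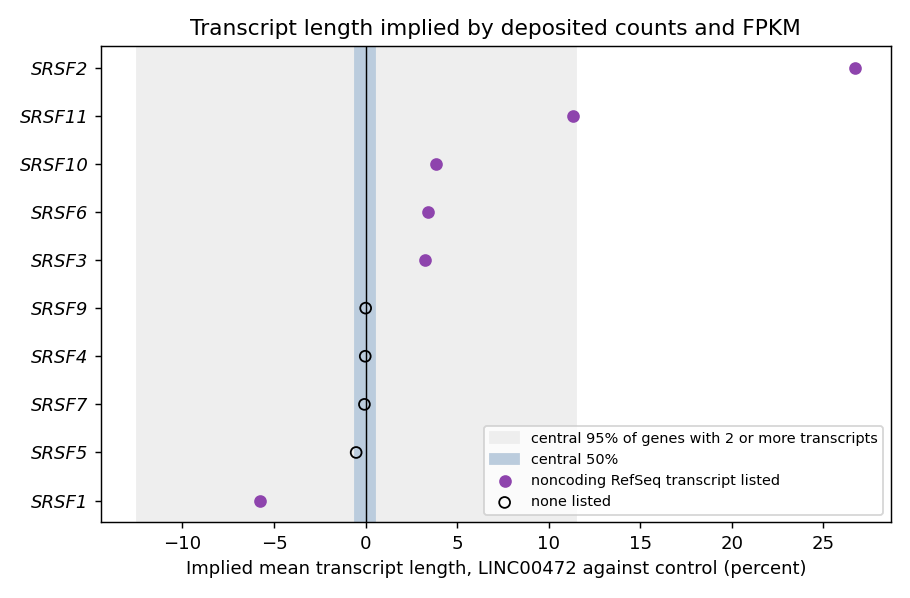
Difference in the mean transcript length implied by deposited counts and FPKM, LINC00472 against control, in percent, for each member (filled points have a noncoding RefSeq transcript listed, open ones none), over the central 50% and 95% of genes with 2 or more transcripts. SRSF2 lies at 26.7% and SRSF11 at 11.3%, while the open points lie within 0.513% of 0.

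The members' ratios were set beside transcript properties as a description, since genes that share both libraries are not independent. Over all 13621 annotated genes tested, Spearman's correlation of the log2 ratio was 0.24 with transcript length, 0.22 with intron length and -0.21 with GC content. Over the 10 members it was 0.26, 0.03 and -0.36. SRSF11 has the most intron sequence of the set, 43545 nt in SRSF11-202, and SRSF4 with 31858 nt in SRSF4-201 had a ratio near equality. The adjusted ratio was 1.79 for SRSF11, 1.44 for SRSF5, -1.24 for SRSF3 and -0.71 for SRSF9. Of 2 nuclear RNAs, NEAT1 met the size rule, with a log2 ratio of 3.16 (2.24 adjusted). MALAT1 did not, with 0.81 (0.22 adjusted, 1.20 with upper quartile factors and 1.10 with total counts). Their relation to the members was not tested.

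Some members share sequence or position with other genes, which makes their counts less certain. SRSF8, a gene derived from SRSF2 by retroposition, aligned to it with 81.6% identity over 1062 nt. It had 216 against 1154 counts and was 2.51-fold lower (log2 -1.33, interval -1.54 to -1.12), short of the rule with upper quartile factors (-0.94) and FPKM (-0.98). SRSF12, a paralog of SRSF10 (83.1% identity over 301 nt), had 86 against 160 counts and a log2 ratio of 0.19 (interval -0.20 to 0.58). Processed pseudogenes of SRSF1, SRSF9 and SRSF10 matched over 530, 318 and 490 nt. Exons of SRSF1 share 1890 nt on the same strand with AC015813.2, a protein-coding gene of GENCODE 29 not analysed here, so that reads there could not be told apart by strand. Exons of SRSF4 share 169 nt with a small RNA gene on the same strand. On the opposite strand, exons of MFSD11 overlap those of SRSF2 over 1106 nt and exons of GATC overlap those of SRSF9 over 1729 nt. No source used here says whether counting used strand. MFSD11 had a log2 ratio of -0.06, and GATC, looked up after the overlap was found, one of -0.92. The microRNA MIR636 within SRSF2 had 3 against 12 counts.

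Partners of the SR proteins were described from lists of 84 genes in all (SRSF8, SRSF12 and MFSD11 included), whose counts can be read against the 16.3% higher and 23.8% lower of all genes. The same shares were 25.1% and 14.2% with upper quartile factors, 22.5% and 16.3% with total counts, and 12.9% and 23.8% after adjustment. Of 25 SR-related splicing proteins, 8 were higher and 1 lower, and their median log2 ratio was 0.38. Upper quartile factors gave 11 higher and 0 lower, and adjustment 6 and 1. The U1-associated protein LUC7L3 was 5.17-fold higher, and the cyclins CCNL1 and CCNL2 were 3.07-fold and 2.64-fold higher. RNPS1, a component of the exon junction complex named here after its value was seen, was the lower one at 2.43-fold, and RSRC2 had a log2 ratio of -0.03.

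Genes that modify or import SR proteins were mixed. The 12 tested had a median log2 ratio of 0.08, with 2 called higher and 1 lower, and adjustment for transcript properties gave 2 higher and 3 lower. Upper quartile factors and total counts each gave 4 higher and 1 lower. The kinase CLK1 was 4.52-fold higher (14812 against 6976 counts), close to the ratio of SRSF11. PRPF4B, another kinase of splicing factors, was 2.12-fold higher, with an adjusted log2 ratio of 0.78 that fell short of the rule. PPP1CA, a catalytic subunit of protein phosphatase 1, was 6.42-fold lower. SRPK1, the main cytoplasmic SR kinase, had a log2 ratio of -0.07.

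Early spliceosome partners, to which SR proteins lead the U1 and U2 particles, were mostly on the lower side by number of genes. The 9 tested had a median log2 ratio of -1.13, with 6 called lower and 0 higher. Of the 9, 2 had a ratio above equality, the highest with a log2 of 0.76. The summed level of the list was 2728 CPM, against 2111 CPM in the control. By upper quartile scaling 3 were lower and 1 was higher, and after adjustment 3 and 0. The U1 subunit SNRPC was 4.98-fold lower, U2AF1, which recognises the end of the intron, 3.42-fold and the U2 subunit SF3A1 2.73-fold, while SF1, the branch point binding protein, had a log2 ratio of -0.03. Of 13 hnRNP proteins and related repressors, which often oppose SR proteins, 7 were lower and 1 higher (median -1.07; by upper quartile scaling, 5 and 1). HNRNPM was 3.56-fold, PTBP1 3.29-fold and HNRNPF 3.27-fold lower. After adjustment 7 were lower and 0 higher. PTBP2, named here after its value was seen, was 3.18-fold higher, with an adjusted log2 ratio of 0.78 that fell short of the rule, and HNRNPDL, whose own transcript is subject to decay, had a log2 ratio of 0.12.

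Genes of nonsense-mediated decay and the exon junction complex, which remove the poison exon transcripts, held calls in both directions. Of 15, 4 were lower and 2 higher. By upper quartile scaling the counts were 3 and 3, and after adjustment 3 and 0. The junction proteins RBM8A and EIF4A3 were 3.29-fold and 2.95-fold lower, and SMG8 was 2.65-fold lower. The kinase SMG1, named after its value was seen, was 2.18-fold higher. CASC3, a further junction protein, had 97.1 against 97.2 CPM. Of 7 genes of mRNA export, 3 were lower and 2 higher, 2 and 2 with total counts, and 3 and 0 after adjustment. The adaptor ALYREF and the receptor cofactor NXT1 were 5.27-fold and 5.14-fold lower, THOC2 was 2.67-fold higher (adjusted log2 ratio 0.82), and the receptor NXF1 had a log2 ratio of 0.12.

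**Figure D5:**
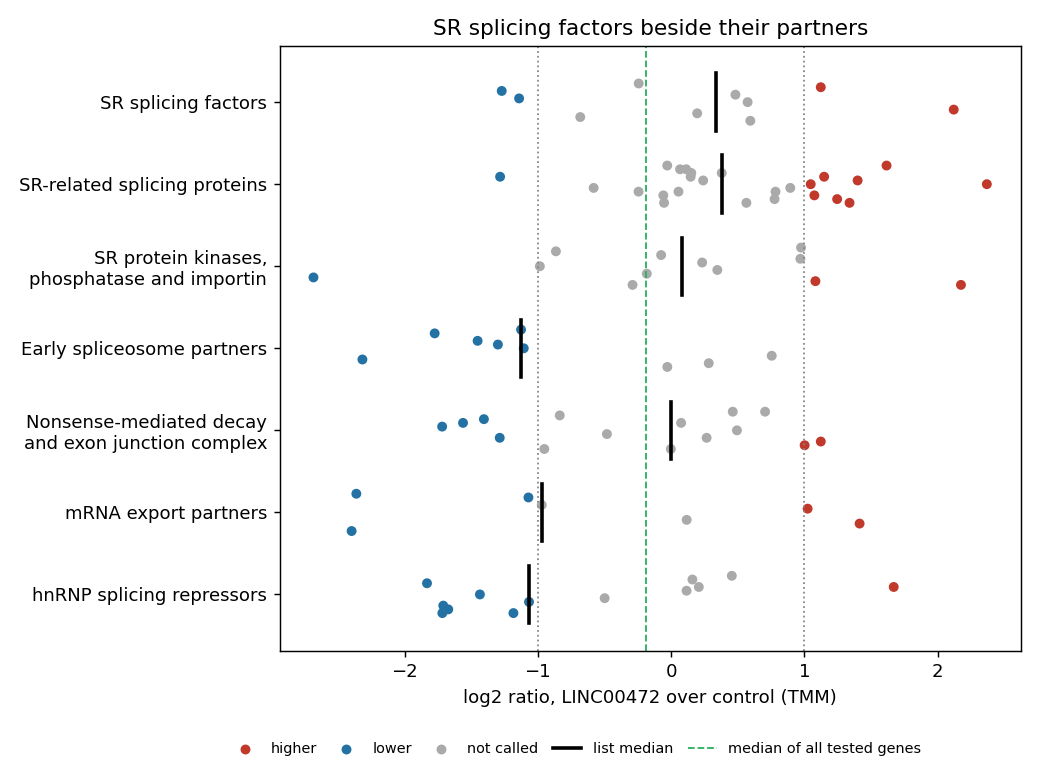
Log2 ratio of LINC00472 over control (TMM) for the SR splicing factors and the genes of 6 lists of their partners. Each point is a gene (red higher, blue lower, grey not meeting the size rule), black bars are list medians and the green line is the median of all tested genes. The median of the SR-related proteins (0.38) lies near that of the SR splicing factors (0.34), and those of early spliceosome partners (-1.13) and hnRNP repressors (-1.07) lie below.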

How the data were processed

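RNA sequencing of 2 libraries, 1 per group, was used, grouped by sample title. Per gene, the authors deposited whole, not normalized read counts and FPKM, in a table of both libraries and a table per library, with identical counts. Per the submitters' processing notes, HISAT2 2.1.0, StringTie 1.3.4b, Trimmomatic and bcl2fastq 2.20.0 were used with hg19, without stated roles. The sources used here do not give the counting method or strand setting.

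Counts were scaled with TMM (edgeR 4.0.16, R 4.3.3; factors 1.11 and 0.905), a prior count of 0.5 was added, and the exact conditional 95% interval of the ratio of 2 counts was computed. Intervals of differences between 2 genes are normal approximations on the log scale, and shares have exact Clopper-Pearson intervals. Reads are not independent molecules, so all cover counting error only. The depth of 21093055 and 54823706 counts makes them narrow for the members. The procedure was tested on simulated data that held counting error alone, as the intervals assume. That test does not bear on variation between cultures. Similarity was computed with blastn and annotation came from GENCODE 29 (97.2% of tested genes matched). Adjusted ratios are residuals of splines (5 knots, degree 3) of transcript length, GC and intron length over 13621 genes (scikit-learn 1.9.0). The median unadjusted ratio of these genes was added back, so the adjusted ratios are not centred on 0 (median -0.32). The adjusted model took up 0.115 of the variance.

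Members and lists were chosen with earlier results of these data known. Named genes were all members, the other SRSF genes, MFSD11, LINC00472, NEAT1, MALAT1, and in each list the 3 with the largest ratios meeting the rule and the 1 nearest to equality, and any others were named after their values were seen. The value of 1 list gene is not reported here. Alternatives were total-count, DESeq2 1.42.0 and upper quartile scaling, a prior count of 5, FPKM with 0.5 added, single-library tables, no minimum and 5 CPM, removal of the 100 most abundant genes, a thinned control, adjusted ratios and protein-coding genes alone. The implied lengths, with minimums of 100 and 2000 counts as alternatives, were added after seeing the data.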

Additional observations from a re-analysis of the deposited data

How the results depend on the processing

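No paired analysis was possible because each group held 1 library. Of the 10 members, 7 kept direction and side of the size rule in all 12 alternatives (SRSF1 in the 11 that could be run for it, since it is among the 100 most abundant genes). Several alternatives could not change a member's ratio. The single-library tables hold identical counts, and no minimum, 5 CPM and protein-coding genes alone only select genes. DESeq2 scaling and removal of the 100 most abundant genes barely moved the ratios, with SRSF11 again at 2.12. These alternatives say little about how firm a call is. The 4 calls fell to 2 with upper quartile factors and with total counts, where 0 members were lower, and 1 was lower with FPKM and with adjusted ratios. The members' median of 0.34 became 0.63 with total counts, 0.73 with upper quartile factors, 0.49 with FPKM, 0.20 without the 100 most abundant genes, 0.43 with the thinned control and 0.28 when adjusted. The median of all genes moved as well, from -0.19 to 0.21 with upper quartile factors, 0.11 with total counts and -0.32 when adjusted. Over all genes, the 2288 higher calls became 3531 with upper quartile factors, 3657 without a minimum, 1347 at 5 CPM and 1407 for protein-coding genes alone, and the 3341 lower calls became 1993 with upper quartile factors. Over the partner lists, the 15 higher calls became 8 when adjusted and the 23 lower calls 14 with upper quartile factors. Genes near equality changed sign. With total counts SRSF2 had 0.046, RSRC2 0.26, SRPK1 0.21, SF1 0.26, CASC3 0.29 and MFSD11 0.22. With upper quartile factors they had 0.15, 0.36, 0.31, 0.36, 0.39 and 0.32. With FPKM, RSRC2 had 0.15, SRPK1 0.11, SF1 0.10, CASC3 0.18 and MFSD11 0.091, and with the thinned control RSRC2 had 0.042, SF1 0.015, CASC3 0.018 and MFSD11 0.0093. When adjusted, SF1 had 0.19 and SRSF12 -0.011. Apart from the shift that a scaling gives all genes, and the removal of a member or of genes from the data, the cause was not tested. Implied lengths kept their direction with minimums of 100 and 2000 counts wherever they differed by 0.1% or more. Depth did not limit the members, which had at least 1233 counts, whereas SRSF12 and MIR636 had few.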
